A study of Mus musculus with 2 samples.

Results

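The epidermal barrier is built from lipids that keratinocytes, the main cells of the epidermis, make and secrete. The genes described here encode 39 enzymes, transporters and activators of that lipid supply: the ceramide pathway, the lipoxygenases and the cholesterol sulfate enzymes. They were listed by their known role, though with earlier results of these data known, and the rule itself uses no measured value. Of the 18193 genes with a probe set of their own on the array, 38 of the 39 were present, with 80 probe sets in all. No probe set had Sts as its only symbol. Each probe set pools several short probes for a transcript into 1 signal.

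The study compared primary keratinocytes of newborn C57BL/6 mice, grown on type I collagen, on 1 Affymetrix array per genotype. The control culture came from MED1flox/flox mice, which the source label calls wild-type. The other culture came from mice with both Med1 alleles floxed and a K5Cre transgene, a Cre recombinase under the keratin 5 promoter of basal keratinocytes, labelled MED1epi-/-. MED1 belongs to Mediator, the large complex through which transcription factors act on RNA polymerase II. The labels do not say how many animals went into a culture, and with 1 array per group no difference below has a replicate check or a p-value.

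Ceramides are made from serine and a long-chain fatty acid by serine palmitoyltransferase, then acylated by ceramide synthases and finished by desaturases. In the granular layer, ultra-long fatty acids are hydroxylated at their far end and joined to linoleic acid, which gives the acylceramides found in epidermis. These are glucosylated, packed into lamellar granules by the transporter ABCA12, secreted, and oxidised by the lipoxygenases 12R-LOX and eLOX3 so that they can be bound to the cornified envelope. Loss of many of these steps in people or mice gives ichthyosis, a scaling skin disease.

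Values are MAS5 signals in arbitrary units. Signals under 67.7, the median of all probe sets, were raised to that floor, and each log2 ratio is the array labelled MED1epi-/- over the control array. Each gene was represented by its brightest probe set over both arrays, and a gene counted as measured when at least 1 array put it at the floor or higher. The available measure of error was the disagreement among probe sets of a gene, which leaves out variation between cultures. Its pooled SD was 0.31 in log2 ratio over 4916 genes, and 0.35 over the 19 members with more than 1 probe set reaching the floor on each array.

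Before the results, the labels and the cells were checked. All 7 Med1 probe sets gave more signal with the MED1epi-/- label, the brightest at 462.7 for the control and 1039 for the other array. The labels do not state which part of Med1 is deleted, so these probe sets check nothing about the deletion. They also do not show which of the arrays came from cells with the deletion. The name "array labelled MED1epi-/-" is kept throughout for this reason. Basal keratinocyte markers were strong on both arrays, with summed signals over 12 genes of 164715 and 198789, and all 11 measured were higher with the MED1epi-/- label (median log2 ratio 0.26). Other markers moved with the label as well. Of 9 measured fibroblast markers 8 were lower on the array labelled MED1epi-/-. Among these, Col3a1, Dcn, Twist2 and Thy1 reached the floor only on the control array, so that they could only read lower. The summed signal of 13 genes was 7300 for the control and 3026 for the other array. Most of it came from Vim (2602 and 979.7), Sparc (2709 and 1034) and Fn1 (1149.5 and 477.7). Col1a1, Lum, Pdgfrb and Postn lay below the floor on both. Of 10 melanocyte markers 8 were lower (29073 and 21079). Granular and cornified layer markers were lower for 13 and higher for 7 of 21 (147018 and 124335), and spinous layer markers higher for 7 of 9 (86034 and 90529 over 10 genes). These sums rest on the brightest genes, such as Sprr1a (34763 and 33217) and Dmkn (33172 and 34527). Several markers of these layers had low signal: Krt10 read 194.6 and 251.3, Flg 133.0 and 185.9, and Lor 130.4 and 227.3. Krt1 lay below the floor on both arrays. By 2-fold or more, 3 of the 21 granular and cornified layer markers were lower and 1 higher. Over all measured genes the shares were 2.23% and 1.63%. The 3 lower were Cdsn (11198 and 4738), Lce1h (2675 and 1140) and Lce1b (644.6 and 307.4), and the higher was Cst6 (1030 and 2423). At 1.5-fold 7 were lower and 4 higher, against 7.32% and 7.8%. Of 8 immune markers 5, and of 5 endothelial markers 4, lay below the floor on both arrays. Xist read 5461 and 55.7, and the Y-linked Eif2s3y read 4.2 and 2164, Kdm5d 1.5 and 380.9 and Uty 24.5 and 221.7. By these transcripts the control culture read as female and the culture labelled MED1epi-/- as male. Sex therefore cannot be told apart from the label in any difference below. Control transcripts probed at both ends had 3′ to 5′ ratios of 0.762 and 0.767 for Gapdh and of 1.76 and 2.37 for the transferrin receptor. The part of these differences in the results below was not tested, and in cultures measured in bulk fewer cells of a type and less RNA per cell cannot be told apart.

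Of the 39 listed genes, 36 were measured. With the MED1epi-/- label, 4 of them, or 11.1%, were lower by 2-fold or more, against 2.23% of the 11621 measured genes. Another 2, or 5.56%, were higher by 2-fold or more, against 1.63%. The 4 lower genes were Sptlc3, Alox12b, Degs2 and Cers3, and the 2 higher genes were Psapl1 and Sgms1. The other 30 lay within 2-fold, so that 16.7% of members were beyond it against 3.86% of all measured genes. At a threshold of 1.5-fold, 10 members were lower and 4 higher, or 27.8% and 11.1%, against 7.32% and 7.8%. As a list, the members had no strong common direction: 21 were below 0 and 15 above, 58.3% below against 42.9% of all measured genes. Their median log2 ratio was -0.08, beside 0.06 over all measured genes, and single members ran from -1.46 to 2.01.

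**Figure D1:**
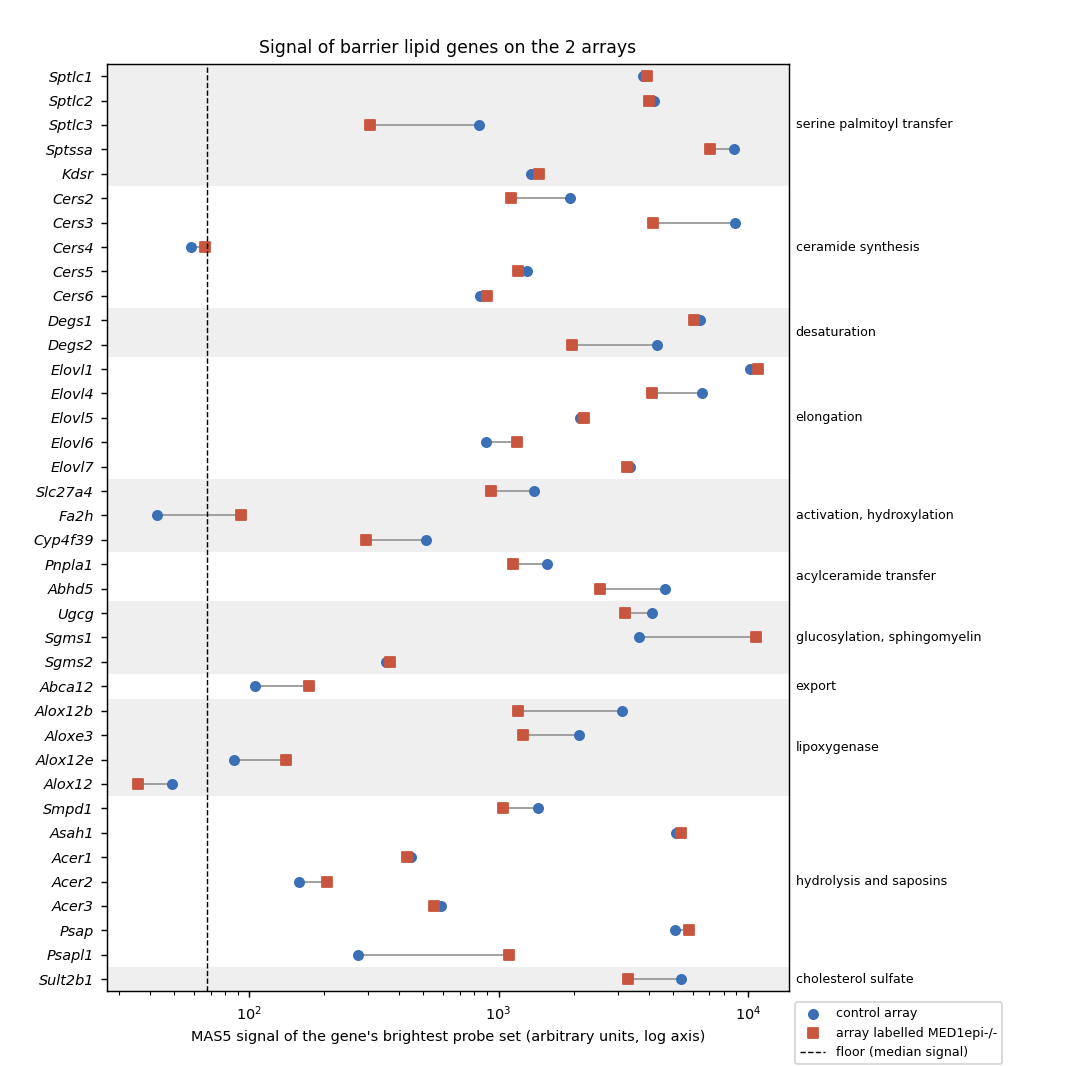
MAS5 signal of the brightest probe set of each of the 38 genes present, on a log axis in arbitrary units, with circles for the control array and squares for the array labelled MED1epi-/- (1 array each, no error bars). Genes are in pathway order with the step named at the right, and the dashed line is the floor of 67.7. The widest gaps belong to Psapl1, Sgms1, Sptlc3 and Alox12b, and Cers4 and Alox12 lie below the floor on both arrays.

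**Figure D2:**
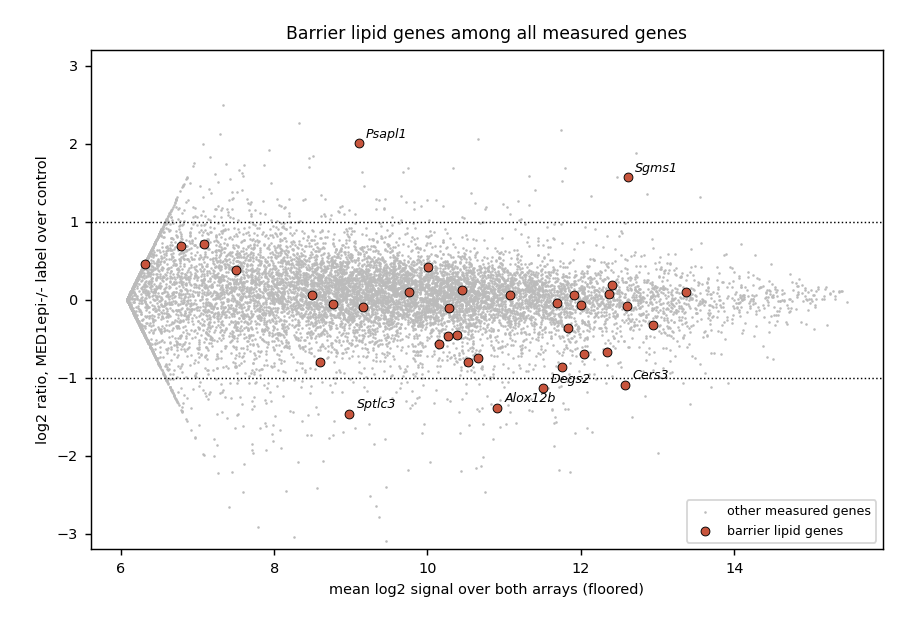
Log2 ratio against mean log2 signal over both arrays for the measured genes, with the barrier lipid genes as large points and the 6 beyond 2-fold named. Dotted lines mark 2-fold, and 4 genes beyond a log2 ratio of 3.2 in size lie outside the plot. The members beyond 2-fold lie above a mean log2 signal of 8, to the right of the low-signal region where ratios spread most.

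The promoters of the 6 genes are shown because these genes set the range of the list, and because they let the sequence upstream of lower and higher members be compared. Each line gives the 250 bases before the transcription start in RefSeq, build GRCm38.p6, 5′ to 3′ along the gene. Capitals mark matches, on either strand, to the motifs searched. The motif TGACCT is the core element bound by many nuclear receptors, and its direct repeats with a spacer of 1 or 3 bases, which contain it, were searched as well. The others were the AP-1 element TGACTCA, the GC box GGGCGG, the CCAAT box, the TATA box given as TATAAA, and the E-box CACGTG.
Sptlc3 (chr2:139493663-139493912, plus strand): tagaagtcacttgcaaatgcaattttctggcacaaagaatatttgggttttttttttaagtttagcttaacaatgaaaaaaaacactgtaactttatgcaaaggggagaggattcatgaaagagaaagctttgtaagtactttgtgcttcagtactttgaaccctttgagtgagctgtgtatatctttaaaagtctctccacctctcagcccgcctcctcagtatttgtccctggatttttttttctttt
Cers3 (chr7:66743254-66743503, plus strand): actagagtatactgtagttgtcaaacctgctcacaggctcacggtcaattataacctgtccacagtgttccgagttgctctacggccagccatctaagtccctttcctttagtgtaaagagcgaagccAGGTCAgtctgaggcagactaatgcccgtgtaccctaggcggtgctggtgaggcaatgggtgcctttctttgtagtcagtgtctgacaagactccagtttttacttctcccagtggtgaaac
Degs2 (chr12:108702307-108702556, minus strand): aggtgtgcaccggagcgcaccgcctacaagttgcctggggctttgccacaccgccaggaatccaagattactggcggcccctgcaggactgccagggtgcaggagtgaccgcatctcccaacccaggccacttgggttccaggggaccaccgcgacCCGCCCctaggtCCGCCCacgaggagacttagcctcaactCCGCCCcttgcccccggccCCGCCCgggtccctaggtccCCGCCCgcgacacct
Alox12b (chr11:69156822-69157071, plus strand): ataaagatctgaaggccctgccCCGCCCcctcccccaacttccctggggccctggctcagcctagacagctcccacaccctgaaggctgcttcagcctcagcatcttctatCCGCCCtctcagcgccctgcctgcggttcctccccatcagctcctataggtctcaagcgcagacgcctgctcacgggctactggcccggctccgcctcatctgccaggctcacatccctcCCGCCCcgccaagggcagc
Psapl1 (chr5:36203771-36204020, plus strand): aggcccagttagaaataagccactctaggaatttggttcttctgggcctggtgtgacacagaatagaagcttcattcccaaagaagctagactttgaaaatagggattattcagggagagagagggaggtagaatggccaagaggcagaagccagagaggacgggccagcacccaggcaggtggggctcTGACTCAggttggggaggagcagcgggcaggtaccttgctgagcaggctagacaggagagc
Sgms1 (chr19:32211014-32211263, minus strand): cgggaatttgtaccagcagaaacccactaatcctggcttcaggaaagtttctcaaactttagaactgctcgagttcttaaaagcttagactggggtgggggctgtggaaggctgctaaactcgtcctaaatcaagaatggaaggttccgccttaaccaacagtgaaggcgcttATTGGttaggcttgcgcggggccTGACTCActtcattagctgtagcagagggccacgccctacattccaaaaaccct

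The 6 promoters differed in what they held. The 250 bases of Sptlc3 had no match to any of the 8 motifs, and a GC content of 35.6%. Degs2 had 5 GC boxes and Alox12b 3, with GC contents of 69.2% and 66.0%. Cers3 had 1 nuclear receptor core element, 122 bases before the start. Psapl1 had an AP-1 match 61 bases before the start. Sgms1 has 4 start sites in the table, and the window shown, chosen after the search, has an AP-1 match 54 bases before the start and a CCAAT box. The other windows of Sgms1 hold no AP-1 match, so the match shown for this gene rests on the window chosen. They hold nuclear receptor core elements, in 2 of them, and GC boxes, also in 2. Neither of these 2 elements was thus found in the lower genes alone. Over all 32851 windows of the table, 32.7% hold a GC box, 14.0% the core element and 4.46% an AP-1 match. Counted by gene over any of its windows, 35 of the 39 members were in the table. A GC box was found for 22 of these, or 62.9%, against 35.4% of all 27025 genes, the core element for 9, or 25.7%, against 15.8%, and an AP-1 match for 6, or 17.1%, against 5.16%. The table holds genes of all types, coding or not. The E-box was found for 5, or 14.3%, against 6.86%, and the CCAAT box for 12, or 34.3%, against 37.5%. The TATA box was found for none of the 35, against 14.3% of all genes. The direct repeats were also found for none, but they are rare, at 0.0407% of all genes with a spacer of 1 base and 0.0074% with 3. Such matches describe the letters only.

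Serine palmitoyltransferase, the first and rate-limiting enzyme, is a dimer of SPTLC1 with either SPTLC2 or SPTLC3. Sptlc3, whose subunit accepts a wider range of acyl chain lengths, gave 838.3 for the control and 304.0 for the array labelled MED1epi-/-. That is 2.76-fold lower (log2 ratio -1.46), and 0.757% of measured genes had a lower ratio. The partner Sptlc1 read 3793 and 3934, and Sptlc2 read 4213 and 4019. By the brightest probe sets, the alternative subunit was thus apart from its partners. The log2 ratio of Sptlc3, the lowest of all members, minus that of Sptlc2 was -1.40. In size this is 3.23 times the SD expected of a difference between probe sets. That SD is the pooled SD over 4916 genes times the square root of 2, and it holds no variation between cultures. The second Sptlc3 probe set lay below the floor on both arrays, so this value rests on 1 probe set. When the floor was set higher, at the 75th percentile of signal (434.6), Sptlc3 was at least 1.93-fold lower. The other probe sets of Sptlc1 ran down to a log2 ratio of -0.89, and with the mean of all its probe sets Sptlc1 was at -0.32. Those of Sptlc2, dimmer than its brightest, stood at 0.23 and -0.69, and with the mean Sptlc2 was at -0.18. Sptssa, a small activating subunit, read 8815 and 7031 (1.25-fold lower). Kdsr, the next enzyme, read 1344 and 1460, and its 3 probe sets had log2 ratios from 0.12 to 0.41.

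Ceramide synthases attach the fatty acid, and each prefers certain chain lengths. Cers3, the synthase for ultra-long chains in epidermis and testis, read 8902 and 4180, 2.13-fold lower. Cers2, which takes very long chains, read 1942 and 1119, 1.74-fold lower. Cers5 and Cers6, which favour palmitate, were close to equal on the arrays at 1297 and 1201 and at 842.5 and 897.1. The synthases for the longer chains were therefore the lower ones. The log2 ratio of Cers3 minus that of Cers6 was -1.18, and minus that of Cers5 it was -0.98. Against Cers2 the difference was -0.30, which is within the spread of a difference between probe sets. Cers4 had 3 probe sets, all below the floor on both arrays.

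The desaturases DEGS1 and DEGS2 finish the sphingoid base. DEGS1 inserts the double bond of ordinary ceramides, while DEGS2 can also hydroxylate, which gives the phytoceramides of skin and gut. Degs2 read 4318 and 1968, 2.19-fold lower, and 1.66% of measured genes had a lower ratio. Degs1 read 6420 and 6061, with its 2 probe sets at log2 ratios of -0.22 and -0.08. The log2 ratio of Degs2 minus that of Degs1 was -1.05.

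Among the fatty acid elongases, no gene differed by 2-fold between the arrays. Elovl4, which makes the ultra-long chains used in acylceramides, read 6565 and 4128 on 1 probe set and 5580 and 3573 on the other, at log2 ratios of -0.67 and -0.64. Elovl1, which supplies saturated very long chains, read 10235 and 10960, and Elovl5, an elongase of polyunsaturated chains, read 2120 and 2201. Elovl6, which extends palmitate to stearate, read 891.5 and 1189, 1.33-fold higher. The 6 probe sets of Elovl7 went both ways, from -0.37 to 0.58, and by the brightest it read 3365 and 3267. The log2 ratio of Elovl4 lay below those of the other 4 elongases, which ran from -0.04 to 0.42. The differences were 1.45 to 2.51 times the SD expected between probe sets, and Elovl7 was at -0.37 without probe sets that can share sequence.

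**Figure D3:**
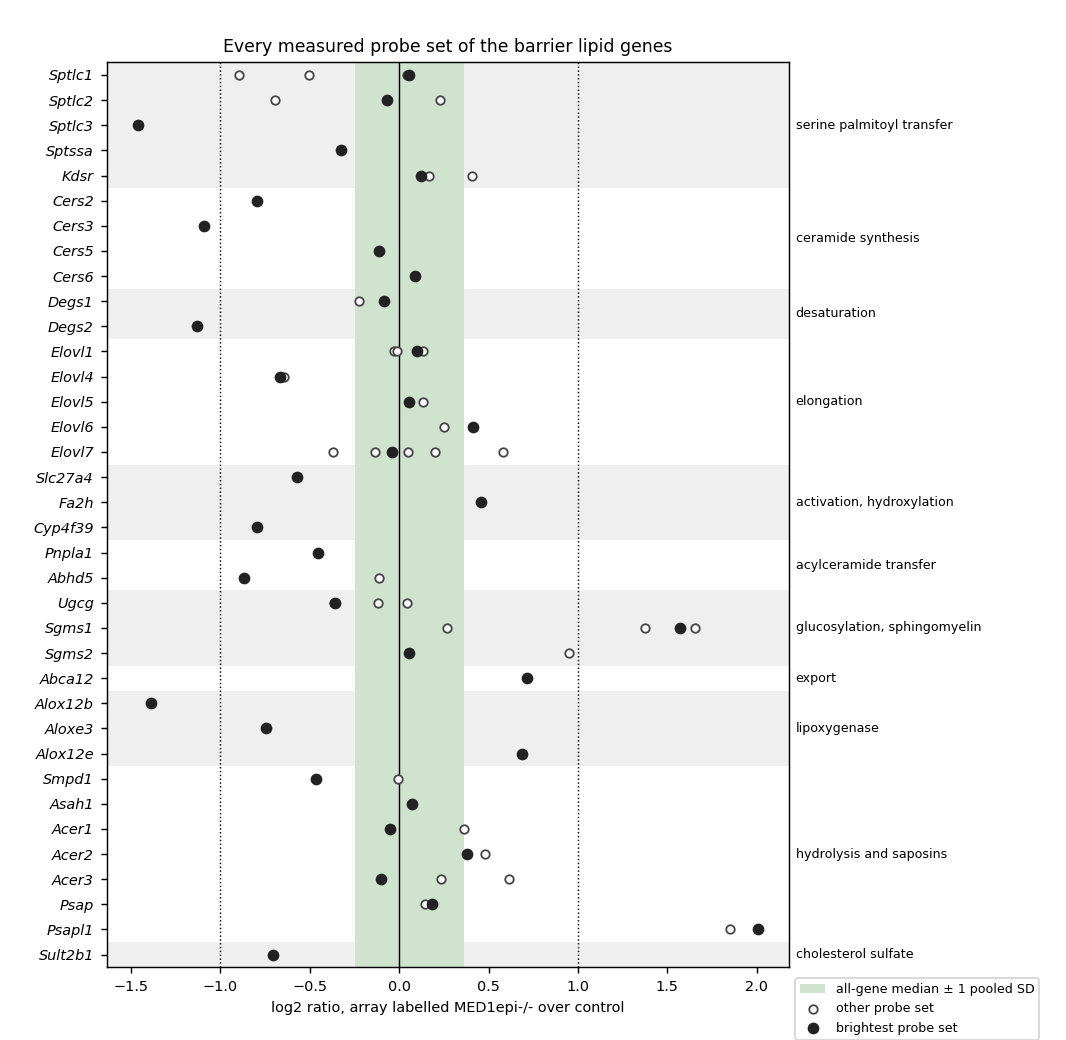
Log2 ratio (array labelled MED1epi-/- over control) of each probe set of the 36 measured genes, where it reached the floor at all, with the brightest probe set of a gene filled. The band is the median of all measured genes, 0.06, plus and minus the pooled SD of 0.31, and dotted lines mark 2-fold. 12 of the 19 genes with several such probe sets had all of them on the same side of 0, Psapl1, Sgms1 and Elovl4 among them.

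The steps that activate, hydroxylate and transfer the acyl chain were mostly lower. Slc27a4, the fatty acid transport protein whose loss gives a premature birth form of ichthyosis, read 1390 and 935.3 (1.49-fold lower). Cyp4f39, the mouse omega-hydroxylase of ultra-long fatty acids, read 512.2 and 295.0 (1.74-fold lower). Pnpla1, which joins linoleate to the hydroxylated chain, read 1571 and 1148 (1.37-fold lower). Its coactivator Abhd5 read 4664 and 2554, 1.83-fold lower, but the second of its measured probe sets read 1446 and 1337, so that the size differed between probe sets. Fa2h, which hydroxylates fatty acids at the other end, went the other way. It read 42.7, below the floor, and 93.1, at least 1.38-fold higher, and the ratio of the signals as deposited passed 2-fold (log2 ratio 1.12). Signals this low are the noisiest of the array.

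At the branch point of ceramide use, the sphingomyelin and glucosylceramide enzymes differed in direction. Sgms1, the Golgi sphingomyelin synthase, moves the phosphocholine head group onto ceramide. Its brightest probe set gave 3644 for the control and 10818 for the array labelled MED1epi-/-, 2.97-fold higher. 2 further probe sets read 2183 and 5657, and 1223 and 3855, while the fourth, near the floor at 95.7 and 115.3, differed little. All 4 were higher on the array labelled MED1epi-/-, with log2 ratios from 0.27 to 1.66, and 99.7% of measured genes had a lower ratio than the brightest. Sgms2, its paralog at the plasma membrane, read 353.6 and 367.5, although a dimmer probe set stood at 0.95. Ugcg, which adds glucose to ceramide before packing into lamellar granules, read 4137 and 3220 (1.28-fold lower), with its 4 probe sets from -0.37 to 0.05. Abca12, the transporter that fills the granules and is mutated in harlequin ichthyosis, had low signal, at 105.8 and 173.4 (1.64-fold higher, 1 probe set).

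The lipoxygenases 12R-LOX and eLOX3 act in sequence on the linoleate of acylceramide, and the genes of both were lower. Alox12b, which encodes 12R-LOX, read 3118 and 1192, 2.61-fold lower, and 0.955% of measured genes had a lower ratio. Aloxe3, which encodes eLOX3 and isomerises the product of 12R-LOX, read 2102 and 1253, 1.68-fold lower. The genes are neighbours on chromosome 11 in the RefSeq table, with Alox8 on the other side of Alox12b. Each was measured by 1 probe set. The related Alox12e read 87.1 and 140.3, 1.61-fold higher at low signal, and Alox12, the platelet-type enzyme, lay below the floor on both arrays for both probe sets.

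Ceramide breakdown and the saposins contained the most extreme member. Psapl1 encodes a prosaposin-like protein, a relative of the precursor from which the activators of lysosomal sphingolipid enzymes are cut. It read 274.1 and 1101 on 1 probe set and 175.7 and 633.6 on the other, 4.02-fold higher by the first, and both probe sets agreed in direction at log2 ratios of 2.01 and 1.85. Under the higher floor of 434.6 it was at least 2.53-fold higher. Psap itself, the prosaposin gene needed to process barrier glucosylceramide, read 5106 and 5788, 1.13-fold higher. The log2 ratio of Psapl1 thus lay 1.83 above that of its relative.

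The hydrolases differed less between the arrays. Smpd1, the acid sphingomyelinase that returns sphingomyelin to ceramide, read 1446 and 1047, 1.38-fold lower, and its dimmer probe set read 219.8 and 218.4. Asah1, the acid ceramidase, read 5144 and 5404. The alkaline ceramidases gave no clear direction: Acer1, the epidermal form, read 443.9 and 428.2 with a second probe set at 0.36, and Acer3 read 589.5 and 549.8 with others up to 0.61. Acer2 read 158.6 and 205.9, 1.30-fold higher, with its 2 probe sets at 0.38 and 0.48. Sult2b1, which makes the cholesterol sulfate that regulates desquamation, read 5384 and 3303, 1.63-fold lower, on 1 probe set.

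The members of the acylceramide route were then read together, in textbook order and with their values known: Elovl1, Elovl4, Slc27a4, Cyp4f39, Cers3, Pnpla1, Abhd5, Ugcg, Abca12, Alox12b and Aloxe3. Of these 11 genes 9 were lower on the array labelled MED1epi-/-, with Elovl1 and Abca12 the exceptions. Their median log2 ratio was -0.67. The other 25 measured members had 12 below 0 and 13 above, and a median of 0.05. Of the 10 members at least 1.5-fold lower, 6 belonged to this route, and the other 4 were Sptlc3, Degs2, Cers2 and Sult2b1. This grouping has no test.

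Genes of the wider sphingolipid pathway that are not members were mostly lower. Of 24 measured, 18 (75%) were below 0, against 42.9% of all measured genes. Of these genes 4 were lower by 2-fold or more and none higher, against 2.23% and 1.63% of all genes, and the median was -0.38 against 0.06. At 1.5-fold 7 were lower and 2 higher, against 7.32% and 7.8%. The 2 higher were Asah2 (234.9 and 395.9, with its probe sets from -0.26 to 0.75) and Hexa (293.3 and 440.5). Spns2, which exports sphingosine 1-phosphate, read 3952 and 1320, 2.99-fold lower. Smpd3, a neutral sphingomyelinase, read 474.7 and 229.7, and all 3 of its probe sets were lower, from -1.57 to -0.82. Gba2, a non-lysosomal glucosylceramidase, read 395.5 and 192.9, 2.05-fold lower. B4galt5, which makes lactosylceramide, read 157.8 and, below the floor, 15.4, at least 2.33-fold lower. The other genes of sphingosine 1-phosphate turnover, named after their values were seen, did not all go the same way. The kinases Sphk1 and Sphk2 were 1.42-fold and 1.47-fold lower, the lyase Sgpl1 1.31-fold and the phosphatase Sgpp1 1.27-fold. The second phosphatase, Sgpp2, read 16.6, below the floor, and 96.7, at least 1.43-fold higher. The ceramide transfer protein gene Cert1, which carries ceramide to the Golgi enzyme encoded by Sgms1, read 1348 and 1774, but its probe sets went from -1.04 to 0.40.

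Other barrier lipid genes were closer to balance than the sphingolipid genes, but lower than the array as a whole. Of 29 measured, 18 (62.1%) were below 0, against 42.9% of all measured genes, and the median was -0.13 against 0.06. By 2-fold or more 1 was lower and 1 higher, against 2.23% and 1.63% of all measured genes. At 1.5-fold 6 were lower and 2 higher, against 7.32% and 7.8%. Abcg1, a sterol exporter, read 1171 and 556.9, 2.10-fold lower, and Lipn, a lipase of the granular layer, read 98.5 and 202.1, 2.05-fold higher at low signal. Lipn was within 2-fold under all 3 rescalings, from 1.86-fold to 1.96-fold, and was not measured under the higher floor of 434.6. 2 genes were named for their place after the lipoxygenases in the route. The epoxide hydrolase gene Ephx3 read 733.0 and 443.9, 1.65-fold lower. The dehydrogenase gene Sdr9c7 read 876.6 and 779.4, but its 2 probe sets stood at log2 ratios of -0.17 and 0.17, so it had no clear direction. Tgm1, the transglutaminase of the cornified envelope, named for its place in the layer where these lipids are bound, read 7698 and 4430, 1.74-fold lower.

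**Figure D4:**
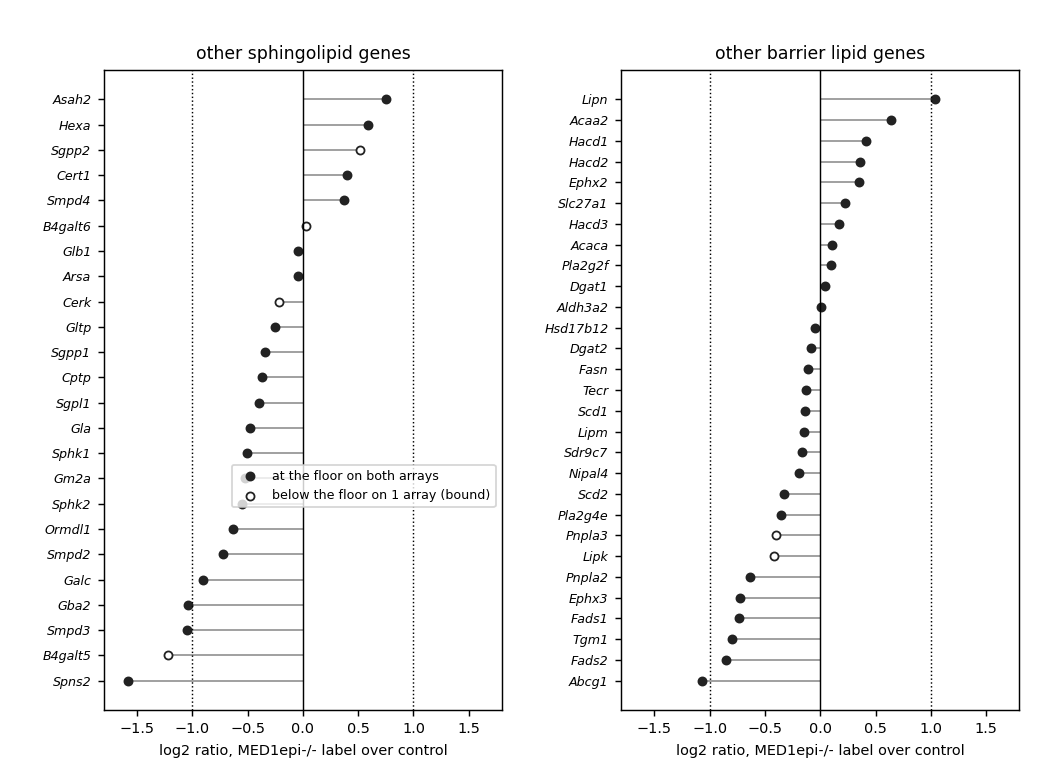
Log2 ratio (array labelled MED1epi-/- over control) of the measured genes of both further lists, each sorted by value, with open points for genes below the floor on 1 array. Dotted lines mark 2-fold. 18 of 24 sphingolipid genes and 18 of 29 barrier lipid genes lie below 0.

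The values of these genes were recomputed under 8 alternatives of floor, scaling and probe set. Alox12b, Degs2 and Cers3 each have 1 probe set, above every floor tried, so that the 3 rescalings were the alternatives that could move them. Under these Alox12b ran from 2.58-fold to 2.73-fold lower, Degs2 from 2.15-fold to 2.29-fold and Cers3 from 2.05-fold to 2.22-fold. Sgms1, with 4 probe sets, ran from 2.33-fold to 3.07-fold higher over all 8 alternatives, the lowest being the mean of its probe sets.

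**Figure D5:**
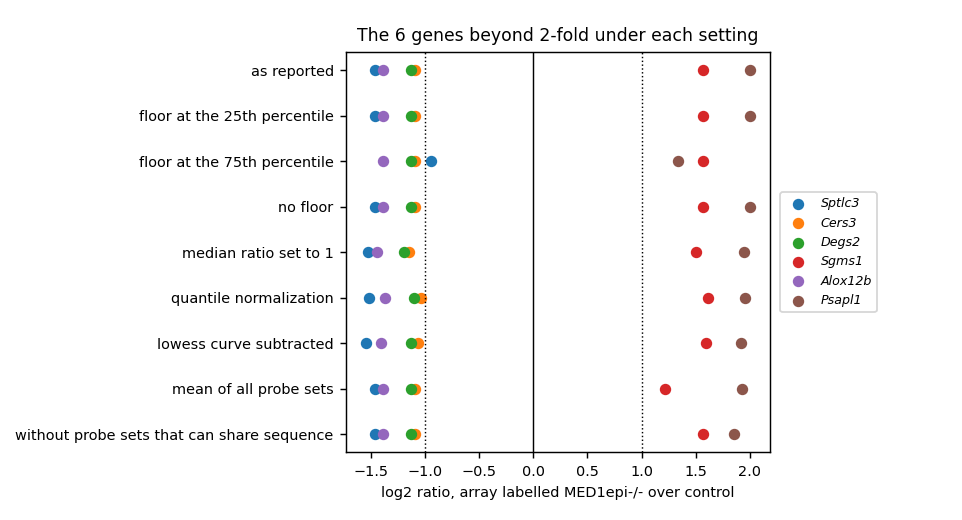
Log2 ratio (array labelled MED1epi-/- over control) of the 6 genes beyond 2-fold, as reported and under each of 8 alternatives. Dotted lines mark 2-fold. The exception is Sptlc3 with the floor at the 75th percentile, at -0.95, and each of the other values stays beyond 2-fold on its side.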

How the data were processed

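The authors deposited linear MAS5 signal intensities, 1 per probe set and array. MAS5 is named in the submitters' processing notes and GeneChip Operating Software in the design text; its version is not given in the sources used here. Of 45101 probe sets, 64 controls were left out, and 34945 had 1 symbol, 932 several and 9160 none in GEO's platform annotation; members were matched to probe sets with 1 symbol. Depth does not apply to arrays, and their number, 1 per group, limits the precision.

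Low MAS5 signals are noisy, so values were raised to the pooled median, 67.7, before log2, and the brightest probe set per gene was used. The control array was subtracted from the array labelled MED1epi-/-, and log2 ratios of at least 1 in size were counted. No test was possible. Counting and scaling were checked on simulated data. Sequences came from RefSeq. The members and lists were chosen with earlier results of these data known. All members were named. Of the other pathway genes and the regulators, those beyond 2-fold were named, otherwise up to 4 with the largest ratio. Further genes were named for their role or after their values were seen. Cell type markers were given mostly as counts and summed signals, so that many beyond 2-fold were not named, and hair follicle markers were not described. Alternatives were floors at the 25th and 75th percentile or none, 3 rescalings, 2 probe set rules and, chosen after seeing the data, a threshold of 1.5-fold. Python 3.11.15, pandas 2.3.3 and statsmodels 0.14.6 were used.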

Additional observations from a re-analysis of the deposited data

How the results depend on the processing

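Under 8 alternatives of floor, scaling and probe set, the counts of members at least 2-fold lower (3 or 4) and higher (2 or 3) and of those below 0 stayed within 1.5 times the reported ones, and the 3 list medians kept their sign and moved by at most 0.1. The higher floor measured 31 members and the removal of probe sets that can share sequence 29. Of the 36 members, 30 kept their sign under each alternative that measured them, while Sptlc1, Elovl5, Elovl7, Sgms2, Acer1 and Acer3 turned. The acylceramide route kept 9 of its 10 or 11 measured genes below 0 under these alternatives, with medians from -0.73 to -0.57. Much of this was fixed in advance, for the route as for the signs of the members. A change of floor cannot turn a sign, and a gene with 1 probe set cannot change its value under the probe set rules. Among other pathway genes, reported as 5 lower and 1 higher, the higher count became 2 when the floor was the 25th percentile or none, and 0 when it was the 75th percentile and under all 3 rescalings. The lower count dropped to 2 when the 75th percentile was the floor and to 3 without probe sets that can share sequence. At a threshold of 1.5-fold, added after seeing the data, 10 members were lower (7.32% of all measured genes) and 4 higher (7.8%), and 13 and 4 other pathway genes. Counts over all genes depended most on the floor: 259 lower and 190 higher as reported, 934 and 1120 at the 25th percentile, 456 and 484 with none, 106 and 49 at the 75th, and 322 and 144 after the lowess curve. A higher floor leaves fewer genes to count. No paired analysis was possible because each group has 1 array.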

Other observations

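Transcription factors with known roles in barrier gene expression had the same median log2 ratio as all measured genes, 0.06. Of 17 measured, 12 were above 0, beside 57.1% of all measured genes, and none was 2-fold apart. Cebpa, a factor of keratinocyte differentiation, read 639.6 and 1257, 1.97-fold higher, and its relative Cebpb read 4814 and 3457, 1.39-fold lower. Zfp750, a zinc finger factor of terminal differentiation, read 1541 and 2379, 1.54-fold higher, and Cebpa and Zfp750 were each measured by 1 probe set. Ovol1, a repressor in the same programme, read 2777 and 3620, 1.30-fold higher, with both probe sets above 0. Klf4 and Grhl3, which mice need for barrier formation, read 10569 and 10988, and 2543 and 2500. The nuclear receptor gene Ppard read 2253 and 2297, and Vdr read 943.9 and 1155.

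Genes associated with the sebaceous gland, another source of skin lipid, went both ways, with 3 of 6 measured below 0. Scd3, a sebaceous desaturase, read 153.7 and, below the floor, 55.5, at least 2.27-fold lower.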
